A study of Mus musculus with 18 samples.

Results

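The let-7 and miR-98 family was followed while the inner cell mass (ICM) of mouse blastocysts, the cells that give rise to the embryo, was turned into embryonic stem cells (ESCs). Its 10 listed members are mmu-let-7a-5p, mmu-let-7b-5p, mmu-let-7c-5p, mmu-let-7d-5p, mmu-let-7d-3p, mmu-let-7e-5p, mmu-let-7f-5p, mmu-let-7g-5p, mmu-let-7i-5p and mmu-miR-98-5p (the species prefix is left out from here on), chosen by name out of 1390 mature miRNAs in the deposited table. Small RNA was sequenced in duplicate from ICMs on the day of isolation, from ICM outgrowths after 0.5, 1, 2, 3 and 5 days, and from ESCs that carry the codes P2, P4 and P15, which gave 18 libraries in 9 groups. All groups came from NMRI mice with no engineered allele named in the labels. ICMs were freed by immunosurgery from blastocysts at E3.5, collected after superovulation. Outgrowths and ESCs were kept on gelatin in N2B27 medium with leukemia inhibitory factor and R2i, the pair of inhibitors PD0325901 (against MEK) and SB431542 (against the TGF-beta type I receptor). The ESC codes are those in the sample descriptions. Titles of the same samples give passage 4 for code P2, passage 15 for code P4 and passage 2 for code P15, so the codes are used as names and no passage order is read from them.

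As background, let-7 miRNAs are a conserved family that accumulates as cells differentiate, and members repress growth-promoting and oncofetal messenger RNAs through a shared seed at the 5′ end. In pluripotent cells the RNA-binding protein Lin28 binds the terminal loop of let-7 precursors, in part through a GGAG motif, blocks their cleavage and recruits enzymes that add uridines and mark them for decay. miRNAs of the miR-290 and miR-302 clusters act against let-7 in ESCs, in textbook accounts. Neither Lin28 nor let-7 precursors were measured here.

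The mature sequences are shown because 9 of the 10 members share 1 seed, and because several differ so little that their separation rests on single bases. They were taken from RefSeq (build GRCm38.p6), where all 10 members matched. Capitals mark bases 2 to 8, the seed.
let-7a-5p: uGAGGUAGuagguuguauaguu
let-7f-5p: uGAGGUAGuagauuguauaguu
let-7e-5p: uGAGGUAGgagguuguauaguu
let-7c-5p: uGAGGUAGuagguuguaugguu
let-7b-5p: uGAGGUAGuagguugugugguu
let-7d-5p: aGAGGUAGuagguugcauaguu
let-7g-5p: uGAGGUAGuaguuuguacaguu
let-7i-5p: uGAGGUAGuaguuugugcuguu
miR-98-5p: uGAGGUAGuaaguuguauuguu
let-7d-3p: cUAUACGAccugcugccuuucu

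Counted from 1 at the 5′ end, with the base of let-7a-5p first, let-7f-5p carried the substitution G12A, let-7e-5p U9G and let-7c-5p A19G. Further from let-7a-5p, let-7b-5p carried A17G and A19G, let-7d-5p U1A and U16C, let-7g-5p G12U and U18C, and miR-98-5p G11A and A19U. The most distant was let-7i-5p, with G12U, A17G, U18C and A19U. Of the 36 pairs among the 9 members with the let-7 seed, 4 pairs differed by 1 base. The way the authors assigned reads with a sequencing error to such near-identical members is not given in the sources used here. A spill of reads between let-7a-5p and let-7c-5p, let-7e-5p or let-7f-5p, or between let-7b-5p and let-7c-5p, was therefore not tested. let-7d-3p, the opposite arm of the let-7d hairpin, has another seed and is kept apart from the sums over the family.

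The 10 members come from 12 hairpins, and 3 of these hairpins bear most on the results: the pair that both yield let-7c-5p, and that of let-7d with both arms measured. In the let-7c hairpins, capitals mark the first GGAG that lies 3′ of the let-7c-5p arm. A further GGAG near the 3′ end of Mirlet7c-1 is left in small letters. In the let-7d hairpin, capitals mark the mature arms.
Mirlet7c-1: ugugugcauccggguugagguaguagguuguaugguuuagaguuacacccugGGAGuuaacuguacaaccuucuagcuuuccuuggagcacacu
Mirlet7c-2: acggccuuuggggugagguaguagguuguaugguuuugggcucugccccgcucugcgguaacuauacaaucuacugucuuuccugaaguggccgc
Mirlet7d: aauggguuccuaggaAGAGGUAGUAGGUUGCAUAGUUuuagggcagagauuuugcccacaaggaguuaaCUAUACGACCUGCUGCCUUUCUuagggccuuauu

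On GRCm38.p6, Mirlet7c-1 lies at chr16:77599657-77599750 on the plus strand, in an intron of the noncoding host gene Mir99ahg and 656 bases from Mir99a. Mirlet7c-2 lies at chr15:85706603-85706697 on the plus strand, overlaps an exon of the noncoding transcript Lncppara and is 621 bases from Mirlet7b. Mirlet7d lies at chr13:48536012-48536114 on the minus strand, where it overlaps an exon of the noncoding transcript 6720427I07Rik together with Mirlet7f-1, 1714 bases away, and Mirlet7a-1, 2064 bases away. Mirlet7e (chr17:17830352-17830444, plus strand) sits in an intron of Spaca6, 367 bases from Mir125a. Mirlet7f-2 and Mir98 share an intron-bearing host, Huwe1 on chromosome X, and are 785 bases apart. Mirlet7a-2 and Mirlet7g lie on chromosome 9, in introns of 3110039I08Rik and Wdr82, and Mirlet7i on chromosome 10 overlaps the transcribed pseudogene D630033A02Rik.

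The letters GGAG were searched on the RNA strand of each hairpin, 3′ of the 5p arm. They occurred in 9 of the 12 family hairpins (75%), against 118 of 690 RefSeq mouse hairpins with a 5p arm (17.1%), with a median window of 59 bases in the family and 44 over all hairpins. Mirlet7b, Mirlet7c-2 and Mir98 lacked these letters in that window. A match is a description of letters, and the mature table does not tell which of the 2 let-7c hairpins, with and without GGAG, a read of let-7c-5p came from.

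The deposited values are normalized read counts, rounded to whole numbers by the authors, and levels are given in that unit. Library totals ran from 602238 to 1265117 normalized counts. In the 10 libraries of days 0 to 3 the values rose in steps that put 1 read at 1.73 to 5.44 normalized counts and the libraries at an estimated 111000 to 370000 reads, and the lowest listed value stood for about 5 reads. The day 5 and ESC libraries list values down to 1 or 2 and held at least 2320000 to 3020000 reads if their lowest value also stands for 5 reads. A change between shallow and deep libraries was therefore also estimated at a common floor, with every value below 27.2 normalized counts set to it. The pluripotent markers of the miR-290 cluster, 6 of 6 listed, held 6.32% to 7.82% of normalized counts in the ICM, 2.68% to 7.40% in outgrowths and 3.66% to 8.99% in ESCs, and miR-290a-5p was at 0 in both P2 libraries and in P15 replicate 1. No label says whether duplicates came from separate embryos or cultures, so p-values measure the spread between these samples, which may be technical. In bulk samples such as these, fewer cells of a type and less miRNA per cell cannot be told apart.

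The 9 members with the let-7 seed together held 0.956% ± 0.046 (SD, n = 2) of all normalized counts at day 0.5, 0.172% ± 0.023 in P2 and 0.122% ± 0.011 in P15, given here as values with no test. Their summed level was 4633 and 5269 normalized counts in the ICM libraries, 0.769% and 0.842% of each library. It was 5910 and 7440 (0.924% and 0.988%) at day 0.5 and 6012 and 6399 (0.871% and 0.957%) at day 1. It was 3126 and 3551 (0.404% and 0.432%) at day 2, 2683 and 2572 (0.277% and 0.385%) at day 3, and 1681 and 1600 (0.241% and 0.204%) at day 5. The drop between day 1 and day 2 separated all 6 early libraries from the 12 later ones. In ESCs the sum was 1467 and 1265 for P2 (0.188% and 0.155%), 1548 and 1443 for P15 (0.130% and 0.114%), and 3437 and 3301 for P4 (0.284% and 0.364%). P4 stood above the other ESC codes through 1 member: without let-7c-5p its sums were 1539 and 1449, next to 1384 and 1181 for P2 and 1230 and 1140 for P15. In the libraries of days 0 to 3 these sums rest on an estimated 558 to 3411 reads each, and day 3 replicate 1 had the fewest.

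**Figure D1:**
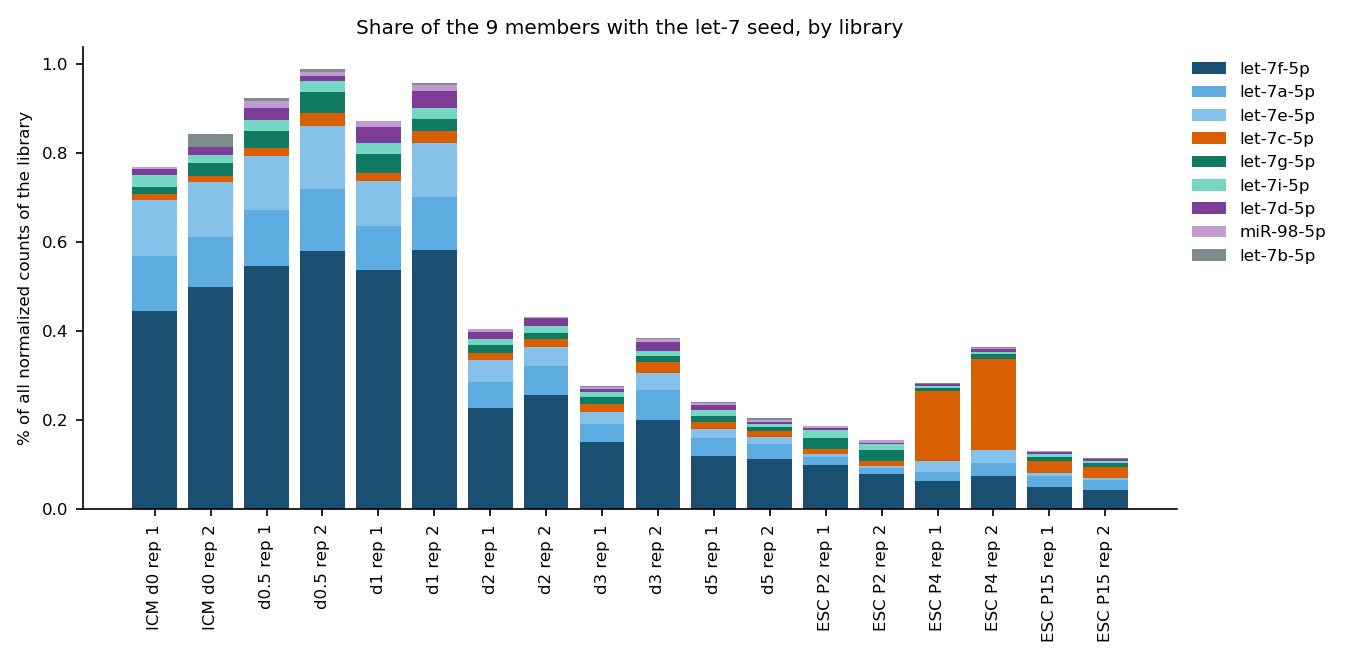
Share of all normalized counts held by the 9 members with the let-7 seed, stacked by member, in each of the 18 libraries (y axis, % of the library's normalized counts). The 6 libraries of days 0 to 1 lie between 0.769% and 0.988%, and the 2 P4 libraries differ from the other ESC libraries by the let-7c-5p segment.

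let-7f-5p was the main member wherever let-7c-5p was low. It made up 58.7% ± 1.00 (SD, n = 2) of the family sum in the ICM, 61.2% ± 0.52 at day 1, 52.6% ± 3.82 at day 5, 52.0% ± 2.12 in P2, 38.1% ± 0.99 in P15 and 21.4% ± 1.11 in P4. let-7c-5p made up 1.56% ± 0.11 of the sum in the ICM, 6.43% ± 0.10 at day 5, 6.15% ± 0.69 in P2, 20.8% ± 0.32 in P15 and 55.7% ± 0.62 in P4. These are shares of a sum, so a rise of 1 member lowers the shares of the others.

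Each member was tested with limma on log2(normalized count + 1), across all 811 miRNAs that reached 10 normalized counts in at least 2 libraries, and a change is called at an adjusted p below 0.05. All 10 members passed that filter. In ESCs against the ICM, 6 members fell (let-7a-5p, let-7d-5p, let-7d-3p, let-7e-5p, let-7f-5p and let-7i-5p), 1 rose (let-7c-5p) and 3 were not called. Among all miRNAs tested, 23.7% were called lower and 31.6% higher in this comparison. The median member change was -1.19 on the log2 scale, beside 0.01 over all miRNAs tested. Rescaling every library to the same total moved these medians to -1.77 and -0.44. In ESCs against the outgrowths the same count, 6 lower and 1 higher, stood beside 19.9% lower and 31.9% higher over all miRNAs, with a member median of -1.19 and an overall median of 0.28. In outgrowths against the ICM, 4 members fell and 2 rose, beside 18.6% lower and 16.3% higher over all miRNAs. The count of 6 called members was 2 without ICM replicate 2, 4 without ICM replicate 1 and 0 with array weights. The ICM libraries enter both comparisons with the ICM, and the ESC libraries both comparisons of ESCs, so these counts are not independent of each other.

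**Figure D2:**
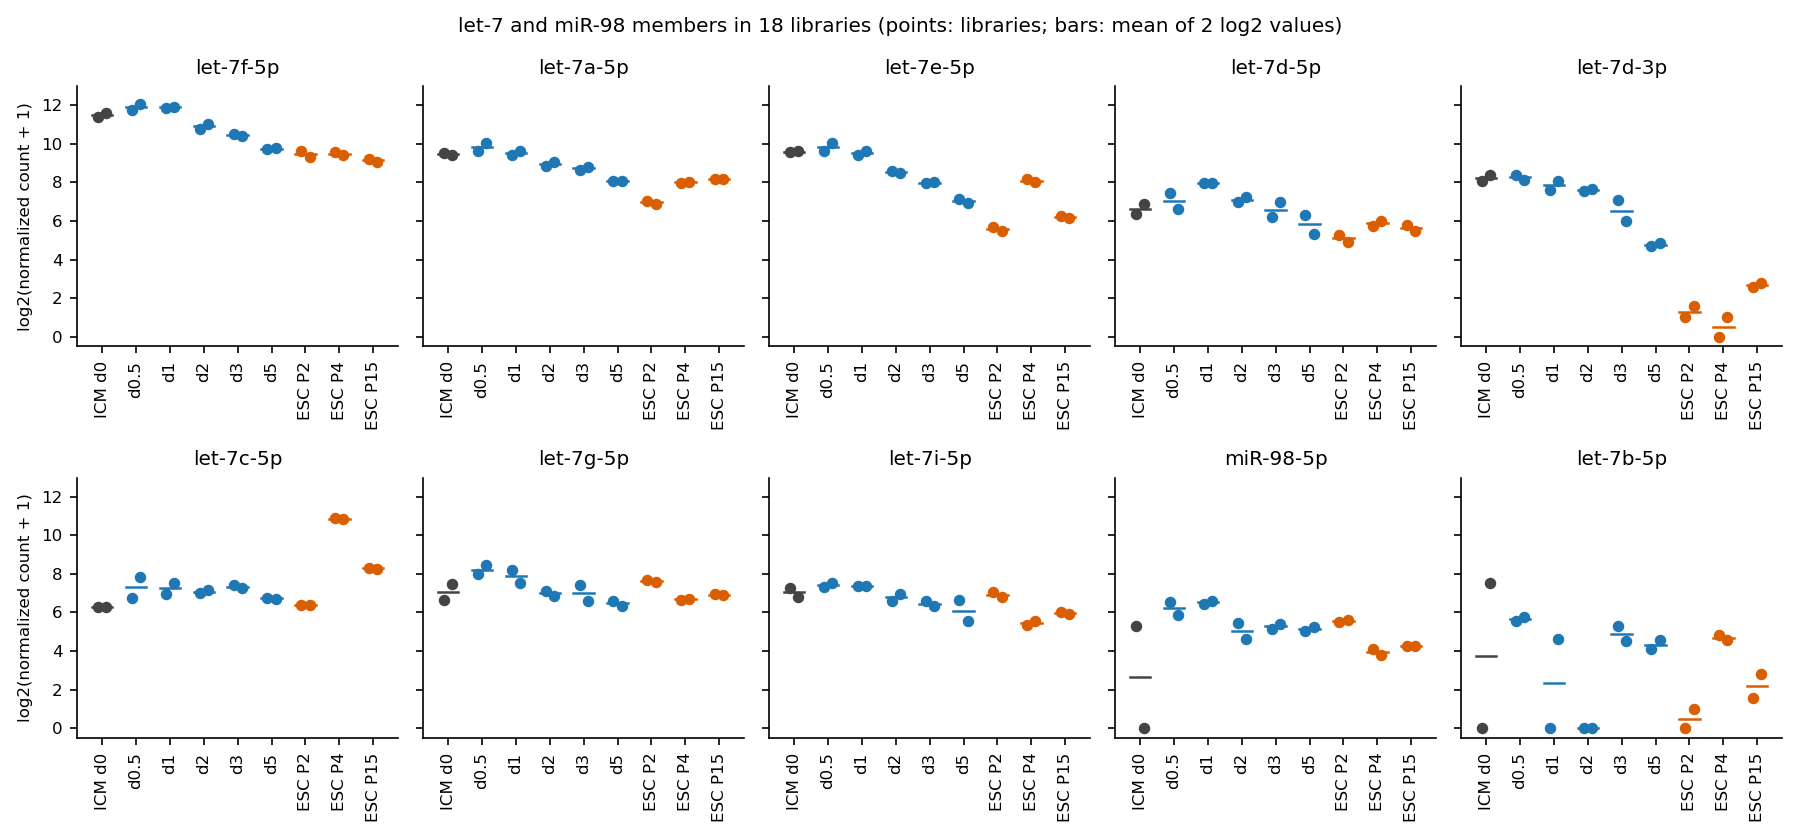
Level of each of the 10 members as log2(normalized count + 1) in the 18 libraries, with ICM in grey, outgrowths in blue and ESCs in orange, points for libraries and bars for the mean of 2 log2 values. let-7f-5p, let-7a-5p and let-7e-5p step down from day 1 to day 5, let-7d-3p ends near 0 in ESCs, and let-7c-5p is highest in P4.

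let-7f-5p, the most abundant member in every group but P4, had 2686 and 3129 normalized counts in the ICM libraries. It had 3496 and 4362 at day 0.5, 3702 and 3893 at day 1, 1754 and 2105 at day 2, 1453 and 1345 at day 3, and 838 and 884 at day 5. In ESCs it had 785 and 639 in P2, 763 and 681 in P4, and 600 and 539 in P15. All 8 libraries of day 5 and ESCs lay below every earlier library, and the 6 ESC libraries lay between 539 and 785. After rescaling to equal totals let-7f-5p was called lower in P15 than in P2, at -0.94 (limma adjusted p = 0.00233), and different among the ESC codes (limma adjusted p = 0.00544). Between ESCs and the ICM let-7f-5p fell by 2.13 on the log2 scale (SE 0.13, limma adjusted p = 7.65e-08), a 4.35-fold lower mean level. Between ESCs and outgrowths it fell by 1.61 (SE 0.08, limma adjusted p = 1.57e-08). Most of this difference was present at day 5: ESCs against day 5 gave a change of -0.38 (SE 0.13, limma adjusted p = 0.0749), which rescaling to equal totals made -0.83 (limma adjusted p = 0.00199).

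let-7a-5p, the member after which the family sequence is usually described, had 734 and 691 normalized counts in the ICM. It had 799 and 1054 at day 0.5, 696 and 801 at day 1, 456 and 537 at day 2, 404 and 448 at day 3, and 272 and 266 at day 5. Its ESC levels were 132 and 117 in P2, 254 and 259 in P4, and 292 and 285 in P15. The libraries of days 0 to 1 did not overlap those of day 5 and ESCs, and P2 lay below every other group. let-7a-5p fell by 1.76 between ESCs and the ICM (SE 0.13, limma adjusted p = 4.98e-07) and by 1.31 between ESCs and outgrowths (SE 0.08, limma adjusted p = 1.27e-07).

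let-7e-5p, encoded beside miR-99b and miR-125a, had 767 and 781 normalized counts in the ICM and, among members whose libraries stay above the floor, the largest fall in ESCs against the ICM. It had 785 and 1054 at day 0.5, 692 and 801 at day 1, 386 and 352 at day 2, 250 and 258 at day 3, and 142 and 120 at day 5. In ESCs it had 50 and 44 in P2, 75 and 71 in P15, and 285 and 259 in P4. In normalized counts P4 lay above days 3 and 5 and the other codes below them. As a share of the library, P4 (0.0236% and 0.0286%) overlapped day 3 (0.0259% and 0.0386%). let-7e-5p fell by 2.97 between ESCs and the ICM (SE 0.15, limma adjusted p = 1.26e-08) and by 1.96 between ESCs and outgrowths (SE 0.09, limma adjusted p = 9.08e-09). Without the P4 group, an alternative chosen after the data were seen, these falls were -3.70 and -2.69.

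let-7a-5p and let-7e-5p had nearly the same level early and parted later. The ratio of let-7a-5p to let-7e-5p was 0.885 to 1.02 in the 6 libraries of days 0 to 1 and 1.18 to 2.22 in those of days 2 to 5. It was 2.64 to 2.66 in P2, 3.89 to 4.01 in P15, and 0.891 to 1.00 in P4. The pair had the same rounded value in 3 libraries, at 1054 (day 0.5 replicate 2), 801 (day 1 replicate 2) and 259 (P4 replicate 2). Over the 18 libraries, log2 levels of let-7a-5p and let-7e-5p correlated at r = 0.93, let-7a-5p and let-7f-5p at 0.91, and let-7e-5p and let-7f-5p at 0.90. These points share libraries, groups and depth, and the values are descriptions.

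The steps between neighbouring days placed the called falls of these members at 2 intervals. From day 0 to day 0.5 and from day 0.5 to day 1 no member was called by limma, beside 11.3% and 15.2% of all miRNAs. At an unadjusted p below 0.05 there were 5 and 1 members, all of them rises. The share of all miRNAs at that looser threshold is not given here, so these counts have no background beside them. At day 0.5 the rises were 0.43 for let-7f-5p, 0.37 for let-7a-5p, 1.02 for let-7c-5p, 1.15 for let-7g-5p and 3.57 for miR-98-5p (1.16 at the common floor). At day 1 let-7d-5p rose by 0.94. From day 1 to day 2, 3 members fell and 0 rose, beside 6.78% of all miRNAs called lower and 4.07% higher. The changes were -0.98 for let-7f-5p (SE 0.15, limma adjusted p = 0.00191), -1.01 for let-7e-5p (SE 0.18, limma adjusted p = 0.00351) and -0.59 for let-7a-5p (SE 0.16, limma adjusted p = 0.0382). The call of let-7a-5p was lost when any of the 4 libraries of these days was left out, with adjusted p from 0.0534 to 0.197, and in 9 alternatives in all. From day 2 to day 3 no member was called by limma, beside 4.07% of all miRNAs. Again without a background share, 3 members had an unadjusted p below 0.05. Of these, let-7e-5p (-0.54) and let-7f-5p (-0.46) fell, and let-7b-5p rose by 4.90, or 0.23 at the common floor. From day 3 to day 5, 4 members fell and 0 rose, beside 6.17% called lower and 12.2% higher. Here the changes were -0.95 for let-7e-5p (SE 0.18, limma adjusted p = 0.00282), -0.70 for let-7f-5p (SE 0.15, limma adjusted p = 0.00845), -0.66 for let-7a-5p (SE 0.16, limma adjusted p = 0.0144) and -1.76 for let-7d-3p (SE 0.50, limma adjusted p = 0.031). In ESCs against day 5, 1 member rose (let-7c-5p) and 1 fell (let-7d-3p), beside 5.92% of all miRNAs higher and 9% lower. In the step from day 3 to day 5, each of the 4 libraries of these days was left out in turn. let-7e-5p was called every time, and let-7a-5p, let-7f-5p and let-7d-3p each lost the call at least once. Depth also changes from the shallow libraries of day 3 to the deep ones of day 5. At the common floor the changes in this step were -0.95 for let-7e-5p, -0.70 for let-7f-5p, -0.66 for let-7a-5p and -1.71 for let-7d-3p. All were still called by limma. Any part of depth in these falls beyond the floor was not tested.

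Markers of fibroblasts and smooth muscle moved in the same interval. Their summed share (miR-143-3p, miR-145a-5p, miR-199a-3p, miR-214-3p and miR-10b-5p, 5 of 5 listed) was 1.18% and 1.35% in the ICM. It was 1.04% to 2.27% in the 8 libraries of days 0.5 to 3, 0.324% and 0.372% at day 5, and 0.231% to 0.380% in the 6 ESC libraries. In the 10 libraries of days 0 to 3 the list was mostly miR-10b-5p, with 5955 to 21292 normalized counts. In the later libraries miR-10b-5p had 220 to 2686, whereas miR-143-3p was higher late (619 to 2375) than early (143 to 736). miR-145a-5p was at 0 in all 10 libraries of days 0 to 3, and miR-214-3p in 9 of them. Blood markers held 0.374% and 0.463% of normalized counts in the ICM, 0.0705% to 0.416% in outgrowths and 0.0839% to 0.255% in ESCs, and neural markers at most 0.0877% in any library. The part of such cells in the let-7 changes was not tested.

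**Figure D3:**
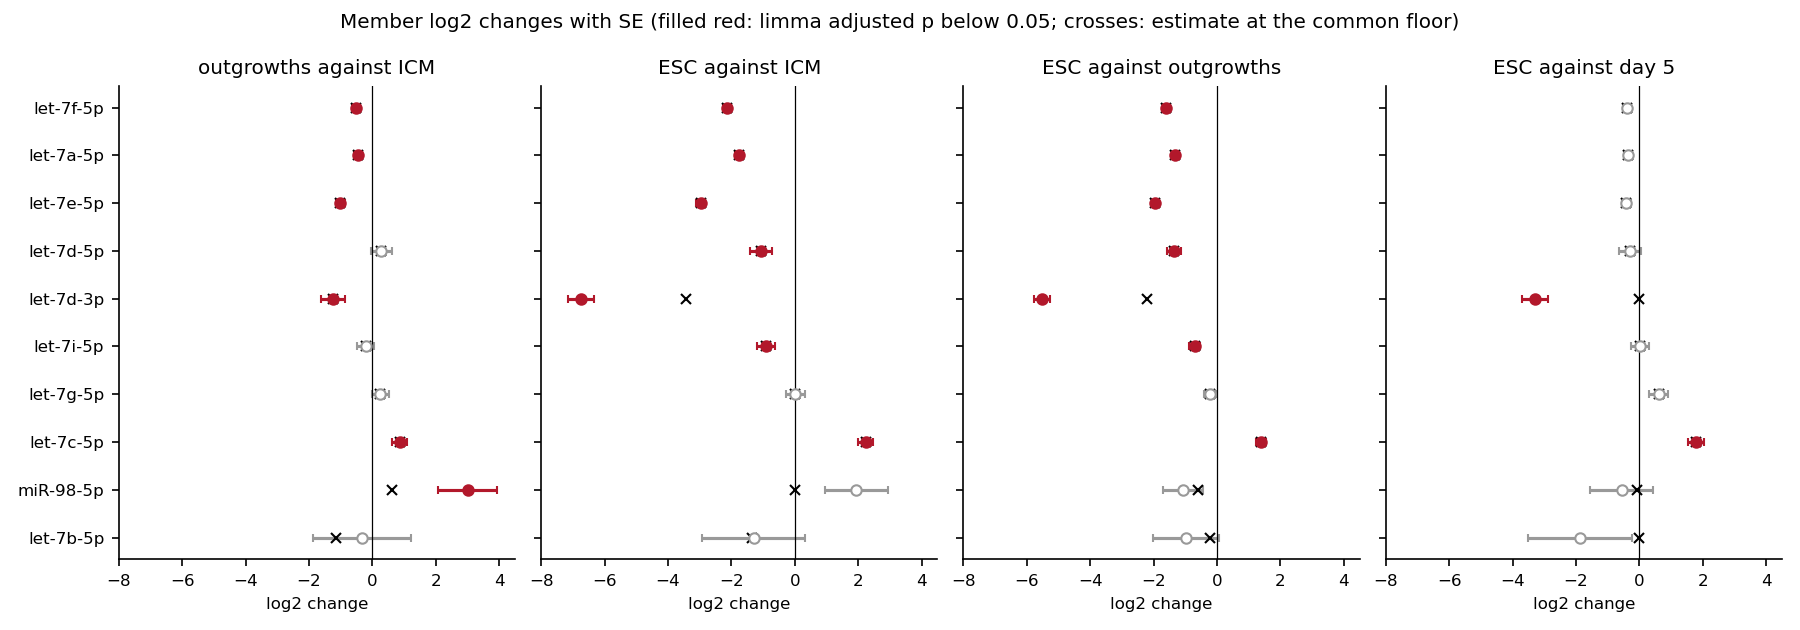
Change of each member on the log2 scale with its SE in 4 comparisons, filled red where the limma adjusted p is below 0.05 and open otherwise; crosses give the estimate with all values below 27.2 set to that floor. let-7d-3p moves from -6.75 to -3.43 in ESCs against the ICM at the floor, while let-7f-5p, let-7a-5p and let-7e-5p stay in place.

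let-7c-5p was the 1 member called higher in ESCs against the ICM, and its level differed widely between the ESC codes. It had 76 and 78 normalized counts in the ICM, where these values stand for about 14 and 25 reads. It had 107 and 230 at day 0.5, 125 and 185 at day 1, 126 and 143 at day 2, 168 and 155 at day 3, and 107 and 104 at day 5. In ESC libraries it reached 83 and 84 in P2, 318 and 303 in P15, and 1898 and 1852 in P4, each code apart from the others with duplicates close together. P4 was the only group where let-7c-5p exceeded let-7f-5p, at 2.49 to 2.72 times its level. let-7c-5p rose by 2.23 between ESCs and the ICM (SE 0.25, limma adjusted p = 1.41e-05), and without P4 by 1.06 (adjusted p = 0.00991). Against the outgrowths let-7c-5p rose by 1.38 (SE 0.16, limma adjusted p = 2.11e-05), and this call rested on P4: without that group the change was 0.20 (limma adjusted p = 0.456). Against day 5 it rose by 1.78 (SE 0.25, limma adjusted p = 4.42e-04), and without P4 the change was 0.61 (limma adjusted p = 0.228). The call in outgrowths against the ICM (0.86, SE 0.24, limma adjusted p = 0.0152) was lost without either ICM library and after rescaling to equal totals.

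Both arms of the let-7d hairpin were measured, and their balance turned over during derivation. let-7d-5p, the arm with the let-7 seed, had 82 and 115 normalized counts in the ICM, 173 and 96 at day 0.5, and 250 and 248 at day 1. It had 126 and 150 at day 2, 72 and 126 at day 3, and 79 and 39 at day 5. The ESC codes held 38 and 29 in P2, 53 and 64 in P4, and 54 and 44 in P15. It peaked at day 1 and was low in every ESC library, although day 5 replicate 2 lay within the ESC range. let-7d-5p fell by 1.36 between ESCs and outgrowths (SE 0.22, limma adjusted p = 3.09e-04). Its fall against the ICM, by 1.08 (SE 0.35, limma adjusted p = 0.0208), was lost without ICM replicate 2 (limma adjusted p = 0.142).

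let-7d-3p, the arm opposite let-7d-5p, was the more abundant arm in the ICM, at 272 and 338 normalized counts. It had 333 and 279 at day 0.5, 192 and 272 at day 1, 188 and 202 at day 2, 135 and 63 at day 3, and 25 and 28 at day 5. Its ESC levels were 1 and 2 in P2, 0 and 1 in P4, and 5 and 6 in P15. Every library of days 0 to 3 lay above both day 5 libraries, which lay above every ESC library. let-7d-3p fell by 6.75 between ESCs and the ICM (SE 0.41, limma adjusted p = 7.65e-08), and the fall at the common floor was -3.43 (limma adjusted p = 3.21e-07). Against the outgrowths it fell by 5.51 (SE 0.26, limma adjusted p = 8.69e-09), or -2.20 at the floor. The further fall from day 5 to ESCs, by 3.28 (SE 0.41, limma adjusted p = 2.53e-04), lies almost wholly below the floor, where the change was -0.02. That floor comes from the shallow libraries, whereas the day 5 and ESC libraries list values down to 1 or 2. A rise of P15 over P4 of 2.20 (limma adjusted p = 0.00863) joins 5 and 6 to 0 and 1 normalized counts, and was 0 at the floor.

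The log2 ratio of let-7d-5p to let-7d-3p, each with 1 added, was -1.72 and -1.55 in the ICM and -0.94 and -1.53 at day 0.5. It lay between -0.90 and 0.99 at days 1 to 3, at 1.62 and 0.46 at day 5, and from 2.68 to 5.75 in the 6 ESC libraries. All ICM and day 0.5 libraries thus held more 3p than 5p, and all day 5 and ESC libraries more 5p. In a limma fit over 193 miRNAs with both arms above the filter, the balance of let-7d moved toward 5p by 5.68 between ESCs and the ICM (SE 0.60, limma adjusted p = 6.50e-05), and by 2.36 with values at the common floor (adjusted p = 6.36e-04). Among the 193 pairs, 20.7% moved toward 5p and 13.5% toward 3p in this comparison, and let-7d was the 16th by size of rise. Against the outgrowths the move was 4.15 (SE 0.38, limma adjusted p = 3.07e-05), or 0.84 at the floor (adjusted p = 0.0198), beside 17.6% of pairs toward 5p and 10.9% toward 3p. The other let-7 and miR-98 arms in the table, 9 in all, were near the detection limit, with 8 never above 10 normalized counts and let-7e-3p reaching 18, so their balance was not measurable.

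**Figure D4:**
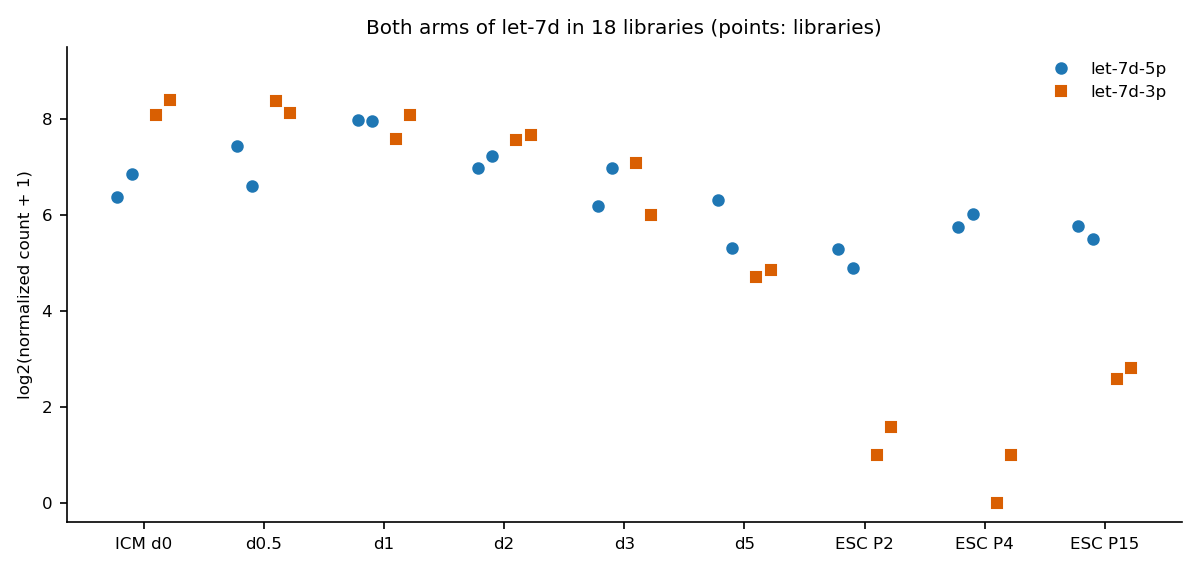
Levels of let-7d-5p (circles) and let-7d-3p (squares) as log2(normalized count + 1) in each of the 18 libraries, by group. The 3p arm is above the 5p arm in the ICM and at day 0.5, and lies between 0 and 6 normalized counts in ESCs while the 5p arm stays between 29 and 64.

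let-7g-5p and let-7i-5p, each from a single hairpin, changed less. let-7g-5p had 98 and 180 normalized counts in the ICM, 251 and 347 at day 0.5, 297 and 187 at day 1, 139 and 115 at day 2, 168 and 97 at day 3, and 96 and 81 at day 5. In ESCs it had 203 and 193 in P2, 101 and 104 in P4, and 124 and 118 in P15, within the range of the earlier groups. Its change between ESCs and the ICM was 0.02 (SE 0.29, limma adjusted p = 0.969), and rescaling to equal totals gave -0.69, which was called (limma adjusted p = 0.0461). Whether a fall of let-7g-5p is called thus depends on how libraries are scaled.

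let-7i-5p had 152 and 112 normalized counts in the ICM, 158 and 187 at day 0.5, 164 and 163 at day 1, 96 and 125 at day 2, 96 and 79 at day 3, and 99 and 46 at day 5. In ESC libraries it reached 132 and 110 in P2, 40 and 46 in P4, and 65 and 59 in P15. In normalized counts P2 overlapped the ICM, and P4 and P15 lay below it. As a share of the library, P2 held 0.0169% and 0.0135%, below the 0.0252% and 0.0179% of the ICM. let-7i-5p fell by 0.92 between ESCs and the ICM (SE 0.29, limma adjusted p = 0.0169) and by 0.71 between ESCs and outgrowths (SE 0.18, limma adjusted p = 0.0064). The call against the ICM was lost without ICM replicate 1, where the change was -0.70. Without P4 the changes were -0.59 (limma adjusted p = 0.133) and -0.38 (limma adjusted p = 0.168). Rescaling to equal totals gave -1.62 against the ICM (limma adjusted p = 0.00122) and -1.15 against outgrowths (limma adjusted p = 7.17e-04).

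miR-98-5p and let-7b-5p were close to the detection limit of the shallow libraries. miR-98-5p, which shares the let-7 seed under another name, had 38 and 0 normalized counts in the ICM, where 38 stands for about 7 reads. It had 94 and 57 at day 0.5, 86 and 97 at day 1, 43 and 24 at day 2, 34 and 42 at day 3, and 32 and 37 at day 5. The ESC codes held 44 and 48 in P2, 16 and 13 in P4, and 18 and 18 in P15. Its call in outgrowths against the ICM, 3.00 (SE 0.94, limma adjusted p = 0.03), was lost without ICM replicate 2, the library at 0, where the change was 0.36 (limma adjusted p = 0.501). At the common floor it was 0.61 and still called (limma adjusted p = 0.0376). In ESCs against the ICM the change of miR-98-5p was 1.94 (SE 1.00, limma adjusted p = 0.117), or 0.01 with the floor applied. In ESCs against outgrowths it was -1.06 (limma adjusted p = 0.181), and at the floor -0.60, which was called (limma adjusted p = 0.00331).

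let-7b-5p, encoded beside let-7c-2, had 0 and 183 in the ICM, 47 and 53 at day 0.5, 0 and 24 at day 1, 0 in both libraries of day 2, 38 and 22 at day 3, and 16 and 23 at day 5. Its ESC levels were 0 and 1 in P2, 27 and 23 in P4, and 2 and 6 in P15, and it was called in no comparison as deposited. In ESCs against the ICM its change was -1.30 (SE 1.63, limma adjusted p = 0.514), and -1.35 at the common floor, where the test called it (limma adjusted p = 0.0317). The ICM libraries disagreed for this member, with 0 in replicate 1 and about 59 reads in replicate 2.

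The 3 ESC codes differed in 5 members by limma's F test over the 3 group means (let-7c-5p, let-7e-5p, let-7a-5p, let-7i-5p and let-7d-3p), beside 27.4% of all miRNAs. In P4 against P2, 3 members were higher and 1 lower, beside 8.88% of all miRNAs in each direction. let-7c-5p was higher in P4 by 4.47 (SE 0.30, limma adjusted p = 1.65e-06), a 22.5-fold difference in mean level. Next came let-7e-5p, higher by 2.51 (SE 0.18, limma adjusted p = 1.85e-06), or 5.79-fold. let-7a-5p was higher by 1.04 (SE 0.16, limma adjusted p = 6.85e-04). The call of let-7a-5p was lost after rescaling to equal totals, at 0.65 (limma adjusted p = 0.086). From P2 to P4 let-7i-5p fell by 1.47 (SE 0.35, limma adjusted p = 0.0117), a call lost without either P2 library or without P4 replicate 1, with adjusted p from 0.051 to 0.102. let-7f-5p had means of 722 and 712 in P4 and P2, a change of 0.03 with an SE of 0.15.

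In P15 against P2, 3 members were higher and none lower by limma, beside 9.74% and 11.6% of all miRNAs. let-7c-5p was higher in P15 by 1.88 (SE 0.30, limma adjusted p = 7.22e-04) and let-7a-5p by 1.21 (SE 0.16, limma adjusted p = 1.46e-04), and the latter was not called after rescaling (0.59, limma adjusted p = 0.101). let-7e-5p was higher by 0.63 (SE 0.18, limma adjusted p = 0.0264), which was lost without any 1 of the 4 libraries and stood at 0.02 after rescaling. In P15 against P4, 2 members were lower and 1, let-7d-3p, higher, beside 8.75% and 7.77% of all miRNAs. The change from P4 to P15 was -2.59 for let-7c-5p (SE 0.30, limma adjusted p = 6.72e-05) and -1.88 for let-7e-5p (SE 0.18, limma adjusted p = 9.42e-06). Pairs of ESC codes share libraries, so these 3 comparisons are not independent. Among the codes, P4 was high in let-7c-5p, let-7e-5p and let-7b-5p and low in let-7g-5p, let-7i-5p and miR-98-5p, and P2 was high in the latter trio, although let-7b-5p, let-7g-5p and miR-98-5p were not called between these codes. After rescaling to equal totals let-7g-5p was called lower than in P2 both in P4, at -1.33 (limma adjusted p = 0.0137), and in P15, at -1.32 (limma adjusted p = 0.0122).

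**Figure D5:**
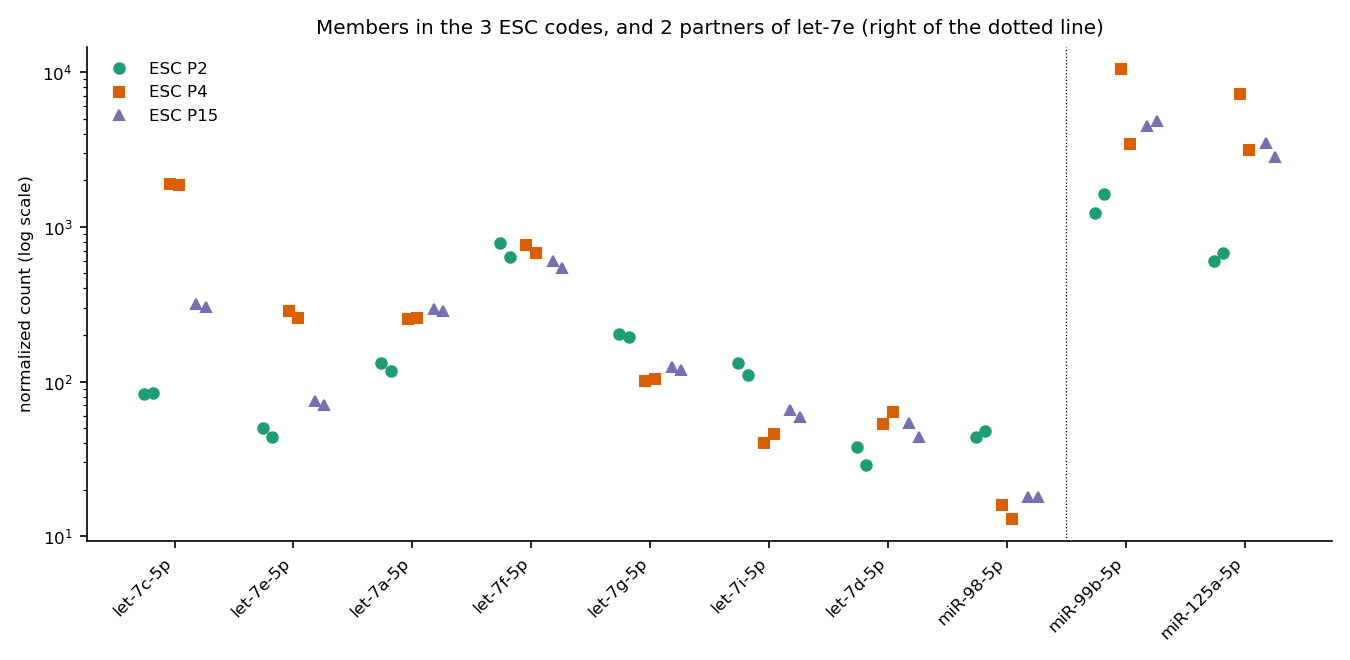
Normalized counts (log scale) of 8 members in the duplicate libraries of the ESC codes P2 (circles), P4 (squares) and P15 (triangles), and of miR-99b-5p and miR-125a-5p to the right of the dotted line. let-7c-5p spans 83 to 1898, while let-7f-5p lies between 539 and 785 in all 6 libraries.

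miRNAs encoded beside let-7 hairpins were followed as a list of 11 arms of miR-99, miR-100 and miR-125, miRNAs that share transcripts with let-7 in several clusters. Of these, 10 were listed and 8 tested, and in ESCs against the ICM 3 of the 8 fell and none rose by limma: miR-125a-5p (-1.15, limma adjusted p = 0.0155), miR-125b-1-3p (-3.39, limma adjusted p = 0.0422) and miR-125b-2-3p (-6.27, limma adjusted p = 0.00106), the latter pair at -1.69 and -2.22 at the common floor. Over all miRNAs tested, 23.7% were called lower and 31.6% higher. Both 5p partners of let-7e differed between ESC codes. miR-125a-5p, a mammalian relative of the worm miRNA lin-4, had 601 and 677 normalized counts in P2, 7161 and 3145 in P4, and 3467 and 2819 in P15. It was higher in P4 than in P2 by 2.89 (SE 0.43, limma adjusted p = 5.15e-04) and in P15 than in P2 by 2.29 (SE 0.43, limma adjusted p = 0.00206). miR-99b-5p had 1232 and 1632 in P2, 10377 and 3419 in P4, and 4496 and 4824 in P15, where both P4 and P15 lay above P2. It was higher in P4 than in P2 by 2.07 (SE 0.59, limma adjusted p = 0.031), which was lost without either P2 library or without P4 replicate 1, with adjusted p from 0.0944 to 0.32. Its rise in P15 over P2, by 1.71, was not called (limma adjusted p = 0.0652). These comparisons share the P2 libraries. In P15 against P4, where let-7e-5p fell by 1.88, miR-125a-5p changed by -0.60 and miR-99b-5p by -0.35, and neither was called by limma. In ESCs against the ICM, miR-99b-5p changed by 0.05 (limma adjusted p = 0.948), beside the fall of let-7e-5p by 2.97.

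The partner of let-7c-1 showed no such level. miR-99a-5p, 656 bases from Mirlet7c-1, was at 0 in all 6 ESC libraries, including P4 where let-7c-5p reached 1898 normalized counts, and was listed in no library other than those of day 5, at 2 and 5. let-7b-5p, whose hairpin lies 621 bases from Mirlet7c-2, was at 27 and 23 in P4, next to 0 and 1 in P2. Its mature sequence differs from let-7c-5p by 1 base, and a spill of let-7c-5p reads into let-7b-5p was not tested. From mature reads the hairpin behind the let-7c-5p of P4 cannot be told apart.

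miRNAs that carry the seed of the pluripotency clusters, 7 of 7 tested, were set beside let-7 as their textbook counterpart. In ESCs against the ICM, 5 of 7 rose and none fell by limma, beside 31.6% of all miRNAs higher, with a list median of 3.81 beside 0.01 over all miRNAs. At the common floor the list median was 0.52, and miR-302c-3p stood at 0.17 in place of 3.81. In ESCs against outgrowths 7 of 7 rose by limma, beside 31.9% of all miRNAs, with a list median of 1.38, or 0.78 at the common floor. There miR-295-3p, at 0.22, was not called (limma adjusted p = 0.0535), and miR-302c-3p stood at 0.15 in place of 2.86. In ESCs against the ICM, the arms of miR-302 carried the size of this list, with miR-302b-3p higher by 6.80 (2.09 at the floor). In that comparison miR-291a-3p and miR-295-3p had changes of 0.27 and 0.17 and were not called. Against day 5, 2 of the 7 were higher in ESCs and 1 lower by limma, beside 5.92% and 9% of all miRNAs. The list median was then -0.87, or 0.10 at the floor. In P4 against P2, 0 were higher and 3 lower, beside 8.88% each way. In P15 against P2, 0 were higher and 2 lower, beside 9.74% and 11.6%. In P15 against P4, 2 were higher and 0 lower, beside 7.77% and 8.75%.

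The miRNAs most like the family in level over the 18 libraries were ranked by Pearson r among 273 candidates with a mean of at least 100 normalized counts. For the summed level they were miR-423-3p (r = 0.88), miR-423-5p (0.87), miR-147-3p (0.86), miR-1934-5p (0.86) and miR-3475-3p (0.86). let-7d-3p was most like miR-744-5p (0.98) and miR-6412 (0.95), let-7a-5p most like miR-328-3p (0.96) and miR-423-3p (0.96), and let-7f-5p most like miR-147-3p (0.94). let-7c-5p had a weaker best match, miR-298-5p at 0.83, and let-7g-5p one of 0.66, with miR-295-5p. Within the family the lowest correlation was that of let-7c-5p with let-7i-5p, at -0.64. All points share libraries, depth and the split between early and late groups, and the correlations carry no test.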

How the data were processed

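Values are those the authors deposited in 1 table for 18 libraries, a score per miRNA that holds normalized counts rounded to whole numbers. The submitters' processing notes name the mm10 genome, DESeq2 1.30.0 and cutadapt, without its version. Whether DESeq2 made the deposited values is not stated. An aligner, read counter or miRNA annotation was not given in the sources used here.

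Since the values are not raw counts, limma 3.58.1 (R 4.3.3) was fitted to log2(value + 1) of the 811 of 1390 miRNAs with at least 10 in at least 2 libraries, with 9 group means, trend and robust options and 9 residual degrees of freedom. p-values were adjusted by Benjamini and Hochberg over all miRNAs tested, with a threshold of 0.05. ESC and outgrowth contrasts weight their groups equally. Whole-read steps could be recovered in 10 of 18 libraries, so no count test was run. The fit was tested on simulated data. Members are all described. Neighbouring miRNAs and pluripotency seed miRNAs were followed as lists, and likeness was ranked by the rule given with it. Members and lists were chosen with earlier results of these data known. Alternatives were 10 added in place of 1, no filter, equal totals, quantile normalization, a common floor of 27.2, array weights, no trend or robust option, a replicate block, leaving out each library and, added later, leaving out P4. Tables and plots were made with Python 3.11.15, numpy 2.4.6, pandas 2.3.3 and matplotlib 3.10.9.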

Additional observations from a re-analysis of the deposited data

How the results depend on the processing

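Of 39 called member changes, 18 were called under every alternative run for them, and these include the falls of let-7a-5p, let-7e-5p, let-7f-5p and let-7d-3p in ESCs against both the ICM and outgrowths and let-7c-5p in each pair of ESC codes. Over 652 refits 585 kept the call, 67 lost it and 0 changed sign. Array weights, which are equal within duplicates and give the ICM 0.157 and P2 7.28, moved counts of called members most: 6 to 0 in outgrowths against the ICM, 4 to 2 from day 3 to day 5, 2 to 5 in ESCs against day 5, 4 to 8 in P4 against P2, 3 to 9 in P15 against P2, and 5 to 10 for any difference among ESC codes. From day 0 to day 0.5, where 0 members were called, 3 were called with 10 added, 3 at the common floor and 2 after quantile normalization. Without the trend and robust options 2 in place of 4 members were called from day 3 to day 5. In ESCs against day 5, 5 were called after rescaling to equal totals, 1 at the common floor and 3 without P4, in place of 2. Any difference among ESC codes was called for 3 after quantile normalization. The causes were not tested.

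Leaving out 1 library gave 6 to 8 called members in ESCs against the ICM, 2 to 6 in outgrowths against the ICM, 7 in ESCs against outgrowths each time, 0 to 2 from day 0 to day 0.5, 2 each time from day 1 to day 2, 1 to 3 from day 3 to day 5, 3 to 4 in P4 against P2, 2 each time in P15 against P2, 2 to 3 in P15 against P4 and 3 to 5 among the ESC codes. The arm balance of let-7d then ranged from 5.52 to 5.84 against the ICM and from 3.96 to 4.34 against outgrowths. Where 1 library of a pair is left out, the lone library is assumed to vary like the other groups.

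Same-numbered replicates showed little shared deviation. Over 36 pairs of groups the correlation of same-numbered deviations ran from -0.36 to 0.24 with a median of -0.01, and 3 were over 0.1 and 5 under -0.1. Whether same-numbered samples share embryos or cultures cannot be told from these correlations, and the labels do not say. With a replicate block, 2 in place of 3 members were called from day 1 to day 2, and all other counts of called members and both arm balances (5.68 and 4.15) stayed as they were. Over all miRNAs tested, array weights gave 250 calls in place of 448 in ESCs against the ICM, 61 in place of 283 in outgrowths against the ICM, 20 in place of 92 from day 0 to day 0.5, 57 in place of 123 from day 0.5 to day 1, and 208 in place of 121 in ESCs against day 5. They gave 319 in place of 144 in P4 against P2, 426 in place of 173 in P15 against P2, 316 in place of 134 in P15 against P4, and 492 in place of 222 among the ESC codes. The common floor gave 182 in ESCs against day 5, and the fit without trend and robust options 57 in place of 88 from day 1 to day 2 and 19 in place of 33 from day 2 to day 3. Leaving out single libraries moved such counts by over 1.5 times to 168 (day 0 to day 0.5, without ICM replicate 2), 63 and 66 (day 0.5 to day 1, without day 1 replicate 1 and day 0.5 replicate 2), 53 (day 1 to day 2, without day 1 replicate 2) and 20 and 60 (day 2 to day 3, without replicate 2 of day 2 and of day 3). They moved likewise to 85 and 96 in place of 149 (day 3 to day 5, without either day 5 library), 74 to 87 (P4 against P2, without either P2 library or P4 replicate 1) and 110 (P15 against P2, without P2 replicate 1). Depth limits let-7b-5p, miR-98-5p and let-7c-5p in the ICM. In the deeper ESC libraries let-7d-3p lies below the common floor, which the shallow libraries set.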
